A study of Sus scrofa with 6 samples.

Results

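The genes described here are the transcription factors that set up and maintain skeletal muscle identity (MYF5, MYF6, MYOD1, MYOG, PAX7 and MEF2C), the secreted growth inhibitor MSTN, and the 2 developmental myosin heavy chains MYH3 and MYH8. Of these 9 genes, 7 had a row in the expression table under their current Ensembl pig gene ID, out of 25322 rows in all. No row was matched to MYOG or PAX7, so neither is reported. The 9 genes were chosen by name, as a group of related function, after earlier results of the same comparison between altitudes were known. Their values across that comparison are therefore a description of these animals, and the fitted values given beside them support nothing further.

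RNA was sequenced from the longissimus dorsi, a back muscle, of 6 healthy female pigs, all of the Tibetan breed. Of these, 3 ranged freely in the Tibetan highland, at 4000 m on average, and are called the highland group. The other 3, the lowland group, lived on the Chengdu plain at 500 m on average, were fed daily under experimental conditions and descended from Tibetan pigs moved there many generations ago. Altitude, feeding, housing and the history of the line differed together between the groups and cannot be told apart, and no age is given.

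In the embryo, MYF5 and MYOD1 commit cells to the muscle lineage, MYOG drives their differentiation into fibres, and MYF6 (also called MRF4) is the member of this family that predominates in mature fibres. All 4 are basic helix-loop-helix proteins that bind DNA as dimers with E proteins and are held back by ID proteins, while MEF2 factors bind beside them at many muscle genes. PAX7 marks the satellite cells, the resident stem cells of muscle, and MSTN (myostatin) is secreted by muscle and limits its growth through activin receptors. MYH3 (embryonic) and MYH8 (perinatal) are myosin motors of developing and regenerating fibres that are largely replaced by adult isoforms after birth.

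Values are FPKM, fragments per kilobase of gene scaled to the mapped total of the library, which allows levels to be compared between genes. The FPKM total per library ran from 506611 to 571855, and 9278 to 10100 genes per library reached an FPKM of 1; absolute depth is unknown. Muscle markers were abundant throughout, with the fast troponin TNNC2 at 11186 to 14823 FPKM and nebulin (NEB) at 323 to 412. Highland library 1 stood apart in its composition. Its 5 measured fibroblast and matrix markers summed to 246 FPKM, against 688 to 1067 in the other 5 libraries, and MYH7B, a myosin heavy chain related to slow isoforms that was picked out after its values were seen, was at 14.2 against 3.92 to 8.14. Its endothelial, smooth muscle and adipocyte marker sums were also the lowest of the 6 libraries, at 28.0, 81.1 and 3.88 FPKM. Its macrophage, lymphocyte and satellite cell marker sums were not. Fitted differences of the 7 genes that this library moved are given with and without it. In bulk tissue, fewer cells of a type and less RNA per cell cannot be told apart.

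The 7 genes spanned 3 orders of magnitude. By mean FPKM over the 6 libraries the order was MYH8 (2098), MYF6 (137), MEF2C (46.3), MYH3 (34.2), MYOD1 (13.2), MSTN (9.09) and MYF5 (1.19). Whether the MYH8 row holds perinatal myosin alone is uncertain. MYH8 lay above and MYF5 below every other gene in all 6 libraries. The genes between them overlapped with their neighbours in this order: MEF2C exceeded MYF6 in highland libraries 1 and 3, at 60.3 against 49.5 and 49.4 against 48.8 FPKM, but in no lowland library. Among the 10005 genes tested, the mean level of MYF6 lay at percentile 96.9 and that of MYF5 at percentile 6.15.

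**Figure D1:**
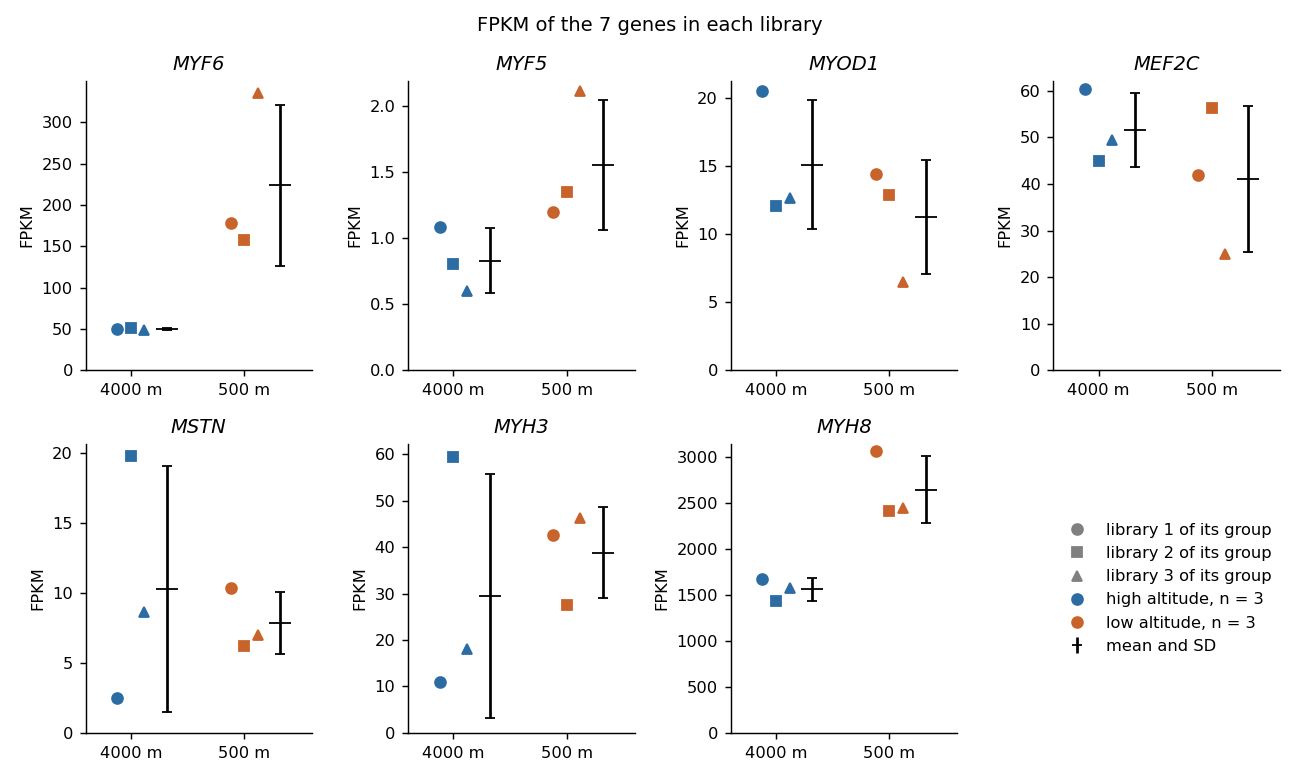
FPKM of MYF6, MYF5, MYOD1, MEF2C, MSTN, MYH3 and MYH8 in each of the 6 libraries, each panel on its own linear axis from 0, with the mean and SD of each group of 3 in black. The groups are apart for MYF6, MYF5 and MYH8 and overlap for the other 4 genes.

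MYF6 showed the widest separation between the groups of the 7 genes. It was at 49.5, 51.5 and 48.8 FPKM in the highland libraries and at 178, 157 and 335 in the lowland libraries. The highland values lay within a narrow band, all 3 lowland values were far above it, and lowland library 3 was highest. The means were 49.9 ± 1.39 (SD, n = 3) and 224 ± 97.4 FPKM, a ratio of 4.48. In log2(FPKM + 1), a scale that shrinks differences of genes with low values, the difference, lowland minus highland, was 2.06 (SE 0.28). Without lowland library 3 it was 1.73, and without highland library 1 it was 2.05.

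MYF5, the earliest of these factors in the embryo and a marker of satellite cells in the adult, was near the lower limit of what was tested. It was at 1.09, 0.802 and 0.601 FPKM in the highland group and at 1.20, 1.35 and 2.11 in the lowland group. No libraries overlapped between the groups, but the gap between the nearest was small, and lowland library 3 was again highest. The means were 0.831 ± 0.245 and 1.55 ± 0.492 FPKM (SD, n = 3), a ratio of 1.87 and a log2 difference of 0.47 (SE 0.18). That difference was 0.57 without highland library 1 and 0.32 without lowland library 3. MYF5 entered the fit because 4 of its 6 values reached an FPKM of 1, and 3 of those 4 came from the lowland group. In RefSeq's annotation of the pig assembly Sscrofa11.1, MYF5 and MYF6 are direct neighbours among protein-coding genes.

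MYOD1, which can turn other cell types into muscle cells, did not share this pattern. It was at 20.5, 12.1 and 12.6 FPKM in the highland group and at 14.4, 12.8 and 6.51 in the lowland group. The groups overlapped, with highland library 1 highest and lowland library 3, the library with the most MYF6, lowest. The means were 15.1 ± 4.74 and 11.3 ± 4.18 FPKM (SD, n = 3), a log2 difference of −0.42 (SE 0.32). It shrank to −0.19 without highland library 1 and to −0.10 without lowland library 3.

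The balance among the measured factors is a ratio within each library and does not move with scaling between libraries. MYF6 made up 69.6, 80.0 and 78.7% of the summed FPKM of MYF6, MYOD1 and MYF5 in the highland group and 92.0, 91.7 and 97.5% in the lowland group. MYOD1 made up 28.9, 18.7 and 20.3% in the highland group and 7.43, 7.50 and 1.89% in the lowland group. Neither share overlapped between the groups, but the shares of MYF6 and MYOD1 are nearly complementary and amount to 1 result. MYOD1 FPKM itself overlapped. MYF5 made up 0.97 to 1.53% in the highland group and 0.61 to 0.79% in the lowland group. Its share was lower in the lowland group although its FPKM was higher there, since MYF6 makes up most of the sum. MYF6 was 2.41 to 4.27 times as abundant as MYOD1 in the highland libraries, 3.87 and 4.27 without library 1, and 12.2 to 51.5 times in the lowland libraries. The mean share of MYF6 was 76.1 ± 5.68% in the highland and 93.7 ± 3.27% in the lowland group (SD, n = 3), 17.6 percentage points apart. MYOG, the remaining factor of the family, is missing from these sums.

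**Figure D2:**
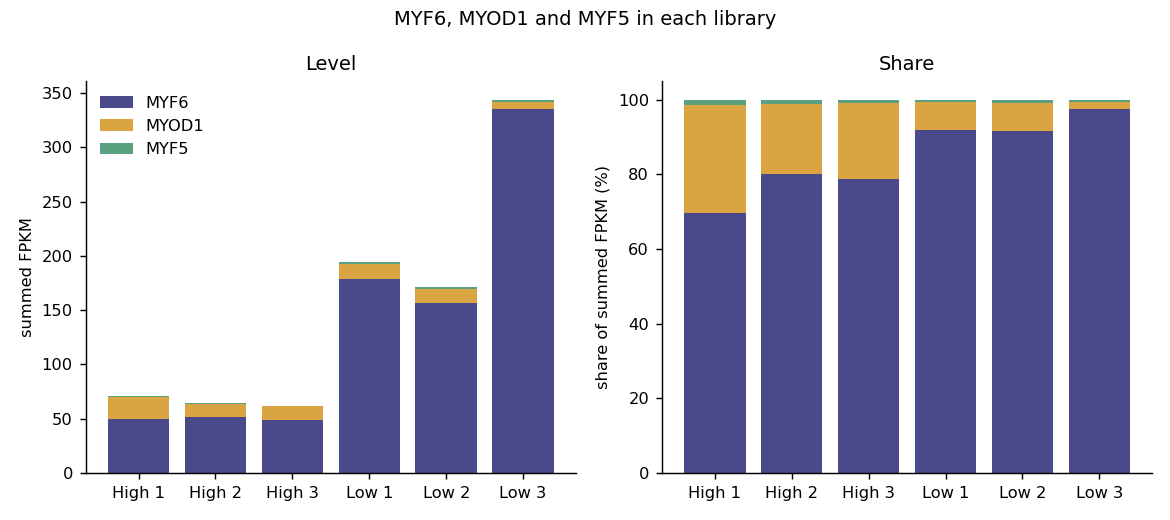
Summed FPKM of MYF6, MYOD1 and MYF5 in each library (left) and the share of each in that sum in percent (right), as stacked bars from 0; High is 4000 m and Low is 500 m. MYF6 takes 69.6 to 80.0% of the sum in the highland libraries and 91.7 to 97.5% in the lowland libraries.

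MEF2C, the partner factor that works with the helix-loop-helix proteins and is high in muscle fibres, varied in the same libraries as MYOD1. It was at 60.3, 44.9 and 49.4 FPKM in the highland group and at 42.0, 56.2 and 24.9 in the lowland group. As for MYOD1, highland library 1 was highest and lowland library 3 lowest, and the groups overlapped. The means were 51.5 ± 7.96 and 41.0 ± 15.7 FPKM (SD, n = 3), a log2 difference of −0.38 (SE 0.29). It was −0.07 without lowland library 3, −0.64 without lowland library 2 and −0.27 without highland library 1. MEF2C made up 51.4 to 68.1% of the summed FPKM of MEF2A, MEF2B, MEF2C and MEF2D in the highland group, 51.4 and 57.8% without library 1, and 40.5 to 59.5% in the lowland group.

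MSTN differed more between animals of a group than between groups. It was at 2.47, 19.8 and 8.65 FPKM in the highland group and at 10.4, 6.23 and 6.997 in the lowland group. Highland libraries 1 and 2 held the lowest and the highest value of all 6, and the lowland libraries lay between them. The means were 10.3 ± 8.77 and 7.88 ± 2.22 FPKM (SD, n = 3), and the log2 difference of −0.03 (SE 0.59) had no stable sign. It was −0.70 without highland library 1 and 0.59 without highland library 2.

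MYH3, the embryonic myosin, followed MSTN in its extremes. It was at 10.9, 59.5 and 18.0 FPKM in the highland group and at 42.7, 27.7 and 46.2 in the lowland group. Highland library 1 was again lowest and library 2 highest, and the lowland libraries lay inside that range. The means were 29.5 ± 26.2 and 38.8 ± 9.85 FPKM (SD, n = 3), a log2 difference of 0.70 (SE 0.56), which was 0.20 without highland library 1 and 1.37 without highland library 2.

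The row under the symbol MYH8, the perinatal myosin, was at 1671, 1427 and 1575 FPKM in the highland group and at 3058, 2413 and 2445 in the lowland group. The groups did not overlap, and lowland library 1, not library 3, was highest. The means were 1558 ± 123 and 2638 ± 363 FPKM (SD, n = 3), a ratio of 1.69 and a log2 difference of 0.75 (SE 0.15). It was 0.81 without highland library 1 and 0.64 without lowland library 1. MYH8 was 153, 24.0 and 87.5 times as abundant as MYH3 in the highland libraries and 52.9 to 87.3 times in the lowland libraries. The highest ratio came from highland library 1, and the ranges overlapped with and without it. The row carries the symbol MYH8 in a current gene table, whereas the annotation release behind the values is not given. No row could be matched by symbol to the adult isoforms MYH1, MYH2, MYH4 or MYH7, and myosin heavy chain genes are close in sequence, so the MYH8 and MYH3 levels are uncertain. The MYH8 row may hold reads of other myosin heavy chains, so its values may not measure perinatal myosin alone.

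**Figure D3:**
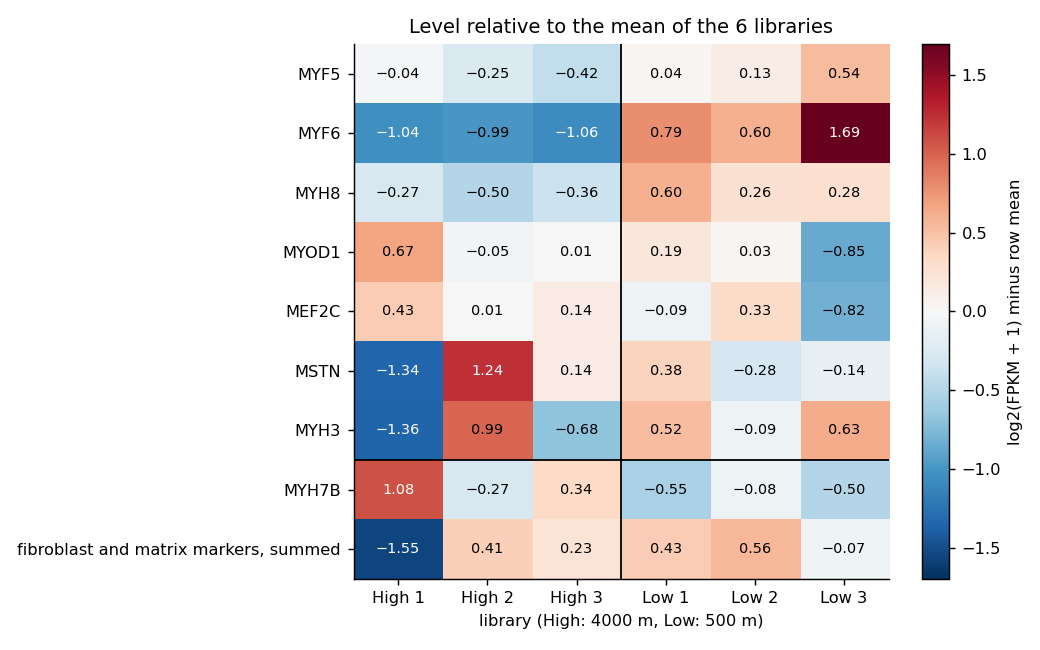
Level of each gene in each library as log2(FPKM + 1) minus the mean of its row, with red above and blue below the mean; MYH7B and the summed fibroblast and matrix markers are shown under the line for comparison. MYF5, MYF6 and MYH8 divide by altitude, whereas MYOD1 and MEF2C are highest in highland library 1, and MSTN and MYH3 are lowest there.

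Set side by side, the 7 genes were sorted into 3 patterns across the libraries after their values were seen. The first pattern is defined by the division between the groups and the others by shared extreme libraries. MYF6, MYF5 and MYH8 were higher in every lowland library than in any highland library. MYOD1 and MEF2C had the same highest and the same lowest library, highland 1 and lowland 3. MSTN and MYH3 had the same highest and the same lowest library, highland 2 and highland 1. Highland library 1 thus held the lowest MSTN and MYH3 and the highest MYOD1 and MEF2C, in the library with the lowest matrix marker sum and the highest MYH7B. The part of its composition in these values was not tested.

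In the fit over all genes with limma, which called 23 of 10005 tested genes at a Benjamini-Hochberg adjusted p under 0.05 (0.230%), 0 of the 7 genes were called. The lowest adjusted p in limma was 0.0585 for MYF6, followed by 0.164 for MYH8, 0.481 for MYF5, 0.719 for both MYOD1 and MEF2C, 0.732 for MYH3 and 0.994 for MSTN. At an unadjusted p under 0.05 limma counted 3 of the 7, beside 9.42% of all tested genes. The groups did not overlap, with the lowland group higher, in 3 of the 7 genes, where 11.3% of all tested genes had this pattern. With the lowland group lower it was 0 of 7, against 4.80% of all tested genes. MYF5 is in both counts of 3, and it reached an FPKM of 1 in 3 lowland libraries but in only 1 highland library. The median log2 difference was 0.47 over the 7 genes and 0.04 over all tested genes. Because the genes were chosen with this comparison in view, nothing is read from these shares.

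MYF6 lay close to the threshold and crossed it under some settings. It passed when the libraries were rescaled to a common total (limma, adjusted p = 0.0137), with a robust fit (0.0475) and with array weights (0.0472). It passed in no other alternative. In limma its adjusted p was 0.172 without a filter, 0.108 under median-of-ratios scaling and 0.0852 under quantile normalization. With a pseudocount of 0.1 it was 0.0697 (limma). In the 6 fits that left out 1 library it ran from 0.0652 to 0.230 (limma, adjusted p). MYH8 did not pass in any of the 18 alternative fits (limma, adjusted p from 0.0671 to 0.487). The log2 difference itself ran from 1.73 to 2.27 for MYF6 and from 0.64 to 0.89 for MYH8 over these fits. The filters, the replicate block and the variance models other than array weights leave this difference unchanged by design. All fits drew on the same 6 libraries, so the range is a description.

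**Figure D4:**
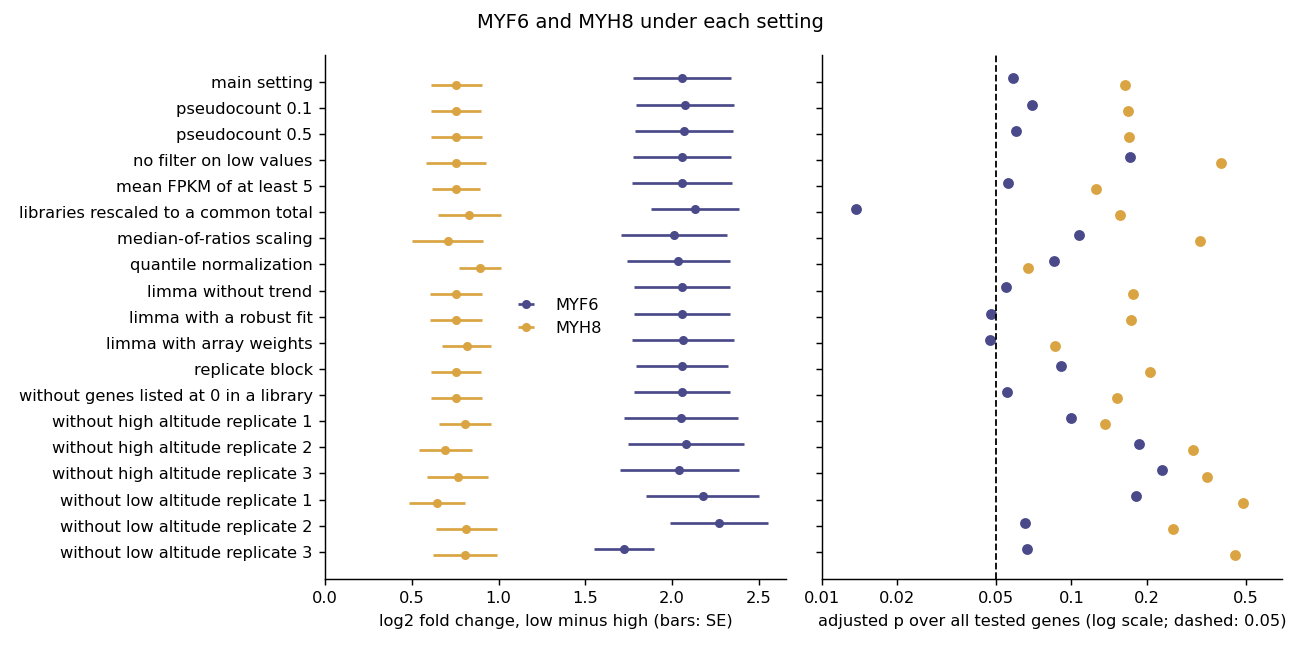
Log2 fold change of MYF6 and MYH8, lowland minus highland, with its SE (left), and the limma adjusted p over all tested genes on a log axis with 0.05 dashed (right), under the main setting and 18 alternatives. The differences run from 1.73 to 2.27 for MYF6 and from 0.64 to 0.89 for MYH8. The filters, the replicate block and the variance models other than array weights leave them unchanged by design. The adjusted p of MYF6 falls on both sides of the threshold.

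The genes that work with these factors were read from lists drawn up by role. Outside the 7 genes, 65 of 134 listed genes were tested, and 0 passed limma's adjusted p of 0.05 in either direction. An unadjusted p under 0.05 was found for 6 of the 65, a share near the 9.42% of all tested genes. Of the 65, 40 had estimates above 0 and 25 below 0, with a median log2 difference of 0.05, beside 57.7% above 0 and a median of 0.04 over all tested genes. Groups without overlap were found for 8 of the 65 genes that were higher and 3 that were lower in the lowland group, shares near the 11.3 and 4.80% of all tested genes. TGFBR1 is in the first of these counts and among the 6, and it entered the fit through the lowland group alone.

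Partners and inhibitors of the helix-loop-helix factors differed by small amounts. Of 10 tested genes 8 had estimates below 0, with a median of −0.11. The E protein TCF3 was at 1.64 ± 0.308 FPKM in the highland and 1.96 ± 0.270 in the lowland group (SD, n = 3). Of the inhibitors, ID2 was at 4.63 ± 1.15 and 4.21 ± 1.22 and ID4 at 1.14 ± 0.245 and 0.971 ± 0.227, and no row was matched to ID1 or ID3. The homeodomain factor SIX4, which acts upstream of the myogenic factors, was at 5.25 ± 1.25 and 4.30 ± 0.961. BHLHE41, a repressor that can bind MYOD1, was at 4.05 ± 1.54 and 3.38 ± 0.170.

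The means of MEF2A and MEF2D differed between the groups by less than the highland SD, whereas HDAC4 and CABIN1, which restrain MEF2 factors, had groups that did not overlap. MEF2A was at 15.5 ± 3.84 FPKM in the highland and 15.3 ± 1.09 in the lowland group, and MEF2D at 19.9 ± 3.29 and 21.3 ± 0.189 (SD, n = 3). HDAC4, a class II deacetylase that represses MEF2 targets, was at 1.20, 1.56 and 1.31 in the highland group and at 2.16, 1.68 and 2.58 in the lowland group, without overlap (limma, adjusted p = 0.476). Its relative HDAC5 was at 11.8 ± 0.359 and 13.6 ± 1.56, and the calcineurin-dependent factor NFATC1 at 2.81 ± 0.681 and 3.90 ± 0.833. CABIN1, which inhibits calcineurin and MEF2, was at 3.57 ± 0.10 and 4.12 ± 0.290, without overlap. Of 12 tested genes of this list, MEF2C included, 9 had estimates above 0, with a median of 0.11.

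Around MSTN, an extracellular antagonist showed the greatest difference in the list. WFIKKN2, which binds myostatin outside the cell and blocks it, was at 3.60, 2.33 and 2.84 FPKM in the highland group and at 9.14, 5.03 and 5.37 in the lowland group. There was no overlap, and the log2 difference was 0.91 (SE 0.23; limma, adjusted p = 0.305). Follistatin (FST), another antagonist, overlapped widely, at 4.41 ± 2.57 and 5.12 ± 1.19 FPKM (SD, n = 3), with its lowest value, 1.51, in highland library 1. Among the receptors, the activin type I receptor ACVR1B was at 2.37, 2.47 and 2.72 in the highland group and at 1.68, 1.97 and 1.66 in the lowland group, lower in each lowland library (log2 difference −0.35, limma, adjusted p = 0.450). The related type I receptor TGFBR1 had means of 0.756 ± 0.137 and 1.24 ± 0.263. It reached an FPKM of 1 in all 3 lowland libraries and in 0 highland libraries, so it could pass the filter only by being higher in the lowland group. The type II receptors ACVR2A and ACVR2B overlapped. SMAD3, which carries the signal to the nucleus, was at 4.60 ± 0.506 and 6.32 ± 1.22 without overlap, and its partner SMAD4 at 14.2 ± 2.62 and 14.5 ± 0.899. Of 14 tested genes, MSTN included, 10 had estimates above 0, with a median of 0.08.

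Other developmental isoforms did not share 1 direction. CKB, the brain-type creatine kinase present in immature muscle, was at 3.09, 6.03 and 4.68 FPKM in the highland group and at 1.78, 1.25 and 1.82 in the lowland group, without overlap and opposite to MYH8 (log2 difference −1.07, SE 0.22; limma, adjusted p = 0.187). Cardiac actin ACTC1, the main sarcomeric actin of fetal muscle, was at 2.61, 4.66 and 13.1 in the highland group and at 12.4, 13.0 and 6.85 in the lowland group. Its groups overlapped through highland library 3. TNNT2, the cardiac troponin T of embryonic muscle, was at 3.01 ± 2.43 and 5.27 ± 4.08 (SD, n = 3). The intermediate filament nestin (NES), found in progenitors and at nerve contacts, was at 1.26 ± 0.307 and 1.79 ± 0.224, without overlap. With MYH3 and MYH8 counted in, 6 of 9 tested genes had estimates above 0, and the median was 0.31.

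Genes of satellite cells and of fusion mostly overlapped between the groups. The satellite cell cadherin CDH15 was at 5.84 ± 0.196 FPKM in the highland and 5.81 ± 0.706 in the lowland group (SD, n = 3). The Notch target HEY1, which keeps satellite cells quiescent, was at 2.70 ± 0.588 and 1.92 ± 0.218, and the adhesion molecule NCAM1 at 4.32 ± 1.78 and 3.09 ± 0.0384. NOTCH2 was at 2.59 ± 0.638 and 3.02 ± 0.267, and the growth factor receptor MET at 1.64 ± 0.889 and 2.05 ± 0.404. In none of the 8 tested genes of the satellite cell and Notch list were the groups apart, and their median was −0.03. MYMK (myomaker), which fuses myoblasts, was at 0.492, 1.28 and 4.71 in the highland group and at 2.53, 3.62 and 2.53 in the lowland group, and the junction protein JAM3 at 5.64 ± 1.5 and 6.09 ± 0.328. Only 3 of 15 listed cell cycle genes were tested, TOP2A (0.821 ± 0.235 and 1.30 ± 0.322), CDK1 (0.862 ± 0.309 and 0.922 ± 0.338) and the cell cycle inhibitor RB1 (4.22 ± 0.597 and 5.47 ± 0.530, without overlap).

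At the nerve contact, which the myogenic factors help to control, AGRN (agrin, the organiser of acetylcholine receptor clusters) was at 0.883, 2.35 and 1.91 FPKM in the highland group and at 2.57, 2.91 and 3.63 in the lowland group. The groups did not overlap, with or without highland library 1, which was lowest (limma, adjusted p = 0.481). The adult receptor subunit CHRNE was nearly equal, at 1.06 ± 0.112 and 1.08 ± 0.0629 FPKM (SD, n = 3). Acetylcholinesterase (ACHE) was at 1.21 ± 0.758 and 0.881 ± 0.154, and the muscle sodium channel SCN4A at 18.2 ± 4.40 and 22.5 ± 2.64. No row was matched to the fetal receptor subunit CHRNG, and only 4 of the 16 listed genes were tested.

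Of the other sarcomeric myosin heavy chains, 3 of 9 were tested, and all 3 overlapped between the groups. MYH13, an isoform known from eye muscle, was at 136 ± 60.1 FPKM in the highland and 147 ± 22.3 in the lowland group, and MYH6, known from heart, at 789 ± 639 and 533 ± 120 (SD, n = 3). MYH6 was highest in highland library 1, at 1480, as was MYH7B. As for MYH8, how reads were divided between close myosin genes is not given, so these levels are uncertain.

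**Figure D5:**
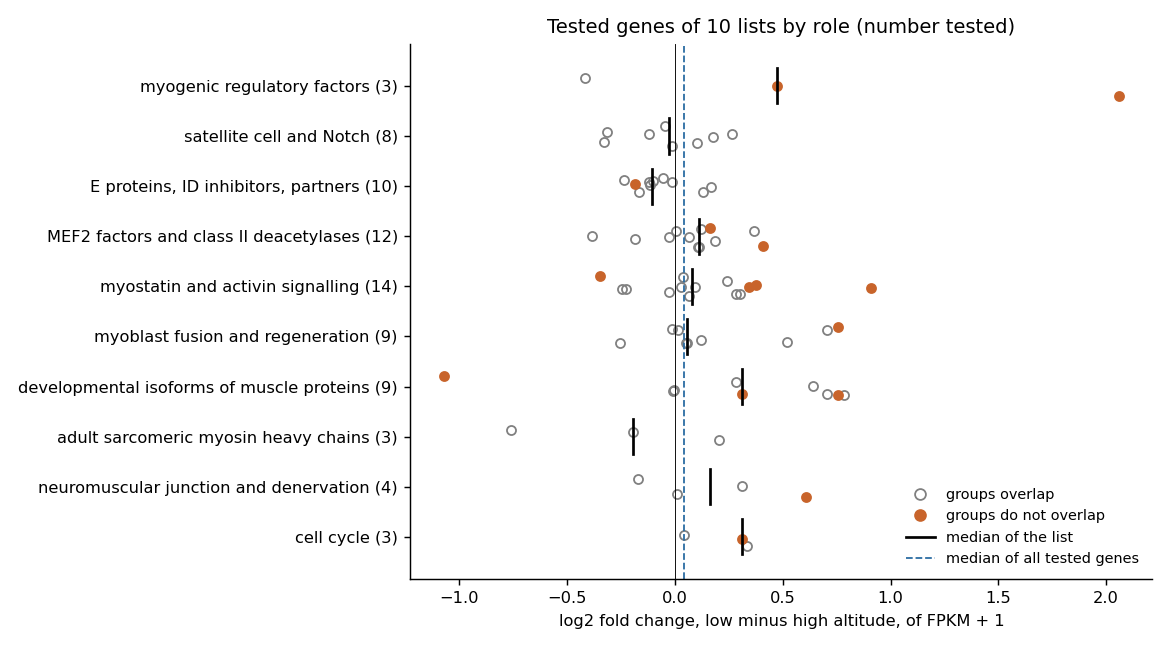
Log2 difference, lowland minus highland, of each tested gene in 10 lists by role, the 7 genes included; filled points mark genes whose groups do not overlap, black bars the median of each list, and the dashed line the median of all tested genes (0.04). MYF6, at 2.06, lies apart from the genes of every list, and the other points lie between −1.07 (CKB) and 0.91 (WFIKKN2).

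Markers of other cell types were compared beside these results, for every list. Satellite cell markers (3 of 4 measured, MYF5 among them) summed to 6.77 to 7.44 FPKM in the highland and 6.66 to 8.68 in the lowland group. Fibroblast and matrix markers (5 of 6) summed to 246 to 958 and 688 to 1067, endothelial markers (3 of 6) to 28.0 to 49.8 and 36.4 to 51.9, and smooth muscle and pericyte markers (5 of 6) to 81.1 to 118 and 109 to 112. Macrophage markers (4 of 6) summed to 9.08 to 10.5 and 8.30 to 16.0, lymphocyte markers (4 of 6) to 7.30 to 8.52 and 4.02 to 9.79, and adipocyte markers (2 of 6) to 3.88 to 22.0 and 4.52 to 12.4. Some single markers separated the groups where the sums overlapped. Of 27 tested markers, 6 had groups without overlap. In 4 the lowland group was higher and in 2 lower, where 11.3 and 4.80% of all tested genes had these patterns. Limma's adjusted p of 0.05 was passed by 0 of the 27, beside 0.230% of all tested genes. KDR, a receptor of endothelial cells, was lower in every lowland library, at 6.88 ± 1.02 FPKM in the highland and 2.87 ± 1.62 in the lowland group, and so was the T cell gene CD3D, at 2.24 ± 0.505 and 1.04 ± 0.0439 (SD, n = 3). MYF5, NEB, the smooth muscle gene TAGLN and the macrophage gene CD14 were higher in every lowland library, CD14 at 2.82 ± 0.195 and 3.92 ± 1.20 and TAGLN at 42.0 ± 2.16 and 50.6 ± 3.37. The part of these cell types in the values of the 7 genes was not tested. The macrophage receptor CSF1R and the B cell gene CD79B were each listed at 0 in 1 library. The groups overlapped in all 7 of these sums, and in that of the muscle fibre markers (4 of 9, 26493 to 33136 and 29028 to 30812). Lowland library 3, with the most MYF6 and MYF5, also had the highest macrophage and lymphocyte sums, 16.0 and 9.79 FPKM, and their part in its values was not tested.

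Among genes with a symbol and a mean FPKM of at least 5, those most like MYF6 over the 6 libraries, by Pearson's r of log2(FPKM + 1), were CRY2 (0.998), GGA1 (0.994), SRP68 (0.983), MAFF (0.982) and ASB11 (0.976). CRY2, a repressor of the circadian clock, was at 10.2, 12.1 and 11.03 FPKM in the highland group and at 35.6, 33.0 and 59.8 in the lowland group, with the order of the lowland libraries that MYF6 had. MAFF, a small transcription factor induced by stress, was at 3.70, 2.66 and 2.68 and at 9.81, 8.30 and 23.6. Those most like MYH8 were CCN1 (0.991), SNRNP200 (0.991), ZFP36L1 (0.990), SETD3 (0.987) and COG8 (0.985). CCN1, a matrix protein induced by growth factors and stretch, was at 7.74, 3.17 and 4.31 in the highland group and at 60.9, 23.3 and 34.8 in the lowland group, highest like MYH8 in lowland library 1. These likenesses rank 3205 genes over 6 libraries that also share the division by altitude, and they are given as a description.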

How the data were processed

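The authors deposited FPKM values in a single table with 25322 Ensembl pig gene IDs and a column per library, named by the animal. Per the submitters' processing notes the tools were TopHat2 2.0.11 and Cufflinks 2.2.1, whose roles they leave out. The build and the annotation release used are not stated in any source at hand, and no coordinates are printed. Per the labels' protocols, libraries were strand-specific. Symbols came from a gene ID table that named 11804 IDs; MYLPF was matched as MYL11.

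Genes that reached an FPKM of 1 in 3 or more libraries were fitted on log2(FPKM + 1) in R 4.3.3 with limma 3.58.1, with an empirical Bayes trend, two-sided, and Benjamini-Hochberg adjustment over all 10005 tested genes. The fit was tested on simulated data with differences larger than most of those described here, so that test does not cover smaller ones. Without counts, no count model or counting interval could be used. The members and the 10 lists by role were chosen with earlier results of these data known. All members were named, and of each list any gene past the threshold and up to 4 more by unadjusted p, except 1 gene that is not reported here. Genes named beyond these (ID2, ID4, MEF2A, MEF2D, ACVR2A, ACVR2B, SMAD4, FST, CDH15, TNNT2) were added for their roles after their values were seen. The 5 genes most like MYF6 and MYH8 were named by Pearson's r. The alternatives were other pseudocounts, filters, scalings and variance models, a replicate block and leaving out each library. A share of developmental myosins among all sarcomeric myosins was not computed, since MYH1, MYH2, MYH4, MYH7 and MYH16 were not matched. Plots were made in Python 3.11.15 with matplotlib 3.10.9.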

Additional observations from a re-analysis of the deposited data

How the results depend on the processing

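The count of changed genes, 23, became 6 without a filter, 9 under median-of-ratios scaling, 10 under quantile normalization and 38 under array weights, and ran from 4 to 21 when 1 library was left out (4 without highland library 3 or lowland library 3, 6 without lowland library 1 and 11 without highland library 2). Of the 7 genes, 1 (MYF6) was called with rescaling to a common total, with a robust fit and with array weights, and 0 in the other 15 alternatives, those that left out 1 library included. Of the 65 pathway genes 0 were called in any of the 18 alternatives. The sign held in every alternative fitted for MYF5, MYF6, MYOD1, MEF2C, MYH3 and MYH8. MYF5 fell out of the fit at a mean FPKM of 5. The MSTN log2 difference was −0.03 and reversed to 0.026 with a pseudocount of 0.1 and to 0.039 with a common total; leaving out 1 library it ran from −0.70 (without highland replicate 1) to 0.59 (without highland replicate 2), and was also above 0 without highland replicate 3 (0.04) and without lowland replicates 2 (0.11) and 3 (0.03). The cause was not tested. The difference in the share of MYF6 ran from 14.4 to 19.6 percentage points when 1 library was left out.

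Same-numbered libraries showed no shared deviation from their group means (correlations of −0.02, 0.09 and −0.14 for numbers 1, 2 and 3). Not every library correlated best with its own number. With 3 libraries per group, these correlations cannot settle whether the numbers pair the animals. With the number as a replicate block, 19 genes changed and 0 of the 7 were called (MYF6, limma, adjusted p = 0.0907). Absolute depth is unknown, so the precision of low values such as those of MYF5 cannot be given.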
